A study of Mus musculus with 6 samples.

Results

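The genes described here are 9 mouse genes for the recognition and uptake of dying cells, taken by name from the 39179 genes in the count files: the TAM receptor tyrosine kinases Tyro3, Axl and Mertk, the bridging proteins Mfge8, Gas6 and Pros1, the endocytic receptor Lrp1 and the scramblases Xkr8 and Plscr1. All 9 were found. RNA came from B16-F10, a melanoma line of C57BL/6 mice grown in culture, as 3 libraries labelled Sirpa-WT (gene intact) and 3 labelled Sirpa-KO (gene knocked out). Sirpa encodes SIRPα, a membrane receptor for CD47. The comparison asks how steady-state expression differs between the unedited and edited tumour cells. No treatment is stated for either group, the number of edited clones is not given in the sources used here, and the label fields give the source as tumor and the cell line as Pmel where the series text has cultured B16-F10. Nothing in the labels ties a replicate to its own culture, and each p-value measures only the spread between these libraries.

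A dying cell exposes phosphatidylserine, a lipid that living cells keep on the inner face of the plasma membrane, when a scramblase such as XKR8 moves it outward. Bridging proteins then join the lipid to a receptor on the engulfing cell: MFG-E8 binds integrins, while GAS6 and protein S (Pros1), which need vitamin K-dependent carboxylation, bind the TAM receptors. LRP1 acts beside these as a large endocytic receptor that takes up many ligands. The pathway is best known in macrophages, but melanoma cells are also known to express several of its genes, TAM receptors and Mfge8 among them.

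The 5 libraries other than Sirpa-KO replicate 1 held 338824 to 411695 counts, and are called shallow here. Sirpa-KO replicate 1, called the deep library, held 29877270. It also stood apart in composition: over 4295 protein-coding genes that passed the count filter, the median log2 ratio of its CPM (counts scaled to one fixed library total) to the mean of the shallow libraries was 0.90, with quartiles of -0.64 and 1.34. Tests of the 9 genes are therefore given with and without it. All deep to shallow log2 ratios here were taken after adding 1 CPM to both values, which draws those of low-CPM genes towards 0. Sirpa itself had 12, 7 and 3 counts in the Sirpa-WT libraries, against 1584, 6 and 6 in those of Sirpa-KO. As CPM these were 29.1, 20.4 and 8.68 against 53.0, 17.7 and 16.3. The deep library, labelled Sirpa-KO, thus held more Sirpa than any library labelled Sirpa-WT, so it showed no loss of Sirpa RNA. The deep to shallow log2 ratio of Sirpa was 1.47, near the upper quartile of 1.34 over protein-coding genes that passed the filter. Sirpa itself did not pass it. The shallow libraries of the 2 groups overlapped. Which part of the gene was edited is not given in the sources used here, and whole-gene counts do not check the labels, so Sirpa-WT and Sirpa-KO stand for libraries so labelled throughout. Of 12 melanocyte markers, all were detected in the shallow libraries, summing to 17600 to 21100 CPM in Sirpa-WT, 14100 and 14800 in shallow Sirpa-KO and 18500 in the deep library. Of 12 macrophage markers, 8 were at 0 in each shallow library, Ptprc, Csf1r and Adgre1 among them, and these 3 had 1 count each in the deep library. The summed macrophage list stood at 9.72 to 26.2 CPM in Sirpa-WT, 17.7 and 32.6 in shallow Sirpa-KO and 5.22 in the deep library. Itgam, on that list, was detected in each library. It stood at 7.29, 20.4 and 14.5 CPM in Sirpa-WT, 14.8 and 24.5 in shallow Sirpa-KO and 0.0335 (1 count) in the deep library. Of the markers of other cell types, 6 of 8 lymphocyte genes, 2 of 7 fibroblast genes and 5 of 6 endothelial genes were at 0 in the shallow libraries.

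The stretches of DNA before 4 of the genes are shown because these genes span what was found: Mfge8 was lower in Sirpa-KO, Pros1 and Mertk were the other members with enough counts to test, and Gas6 had no count in any library. Each is the 250 bases before the RefSeq start (GRCm38.p6), 5′ to 3′ on the strand of the gene, with GGGCGG or its reverse complement CCGCCC in capitals. This motif is known as the GC box, a binding sequence of SP-family transcription factors.
Mfge8 (chr7:79149061-79149310, minus strand): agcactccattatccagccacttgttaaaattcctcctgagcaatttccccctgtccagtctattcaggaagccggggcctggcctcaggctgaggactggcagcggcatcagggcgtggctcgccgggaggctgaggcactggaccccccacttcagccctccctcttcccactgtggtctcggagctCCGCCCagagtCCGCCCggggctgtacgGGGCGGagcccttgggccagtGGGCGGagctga
Pros1 (chr16:62854057-62854306, plus strand): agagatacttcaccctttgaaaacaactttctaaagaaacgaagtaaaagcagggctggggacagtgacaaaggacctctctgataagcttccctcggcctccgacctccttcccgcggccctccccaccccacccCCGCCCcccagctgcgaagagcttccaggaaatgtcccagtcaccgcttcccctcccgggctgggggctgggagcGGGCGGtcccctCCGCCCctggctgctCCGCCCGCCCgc
Mertk (chr2:128698665-128698914, plus strand): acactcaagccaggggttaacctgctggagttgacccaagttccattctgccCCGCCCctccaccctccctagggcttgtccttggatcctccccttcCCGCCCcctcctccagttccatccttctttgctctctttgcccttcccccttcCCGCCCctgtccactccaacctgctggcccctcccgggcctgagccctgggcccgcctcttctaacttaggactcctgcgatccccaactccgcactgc
Gas6 (chr8:13494536-13494785, minus strand): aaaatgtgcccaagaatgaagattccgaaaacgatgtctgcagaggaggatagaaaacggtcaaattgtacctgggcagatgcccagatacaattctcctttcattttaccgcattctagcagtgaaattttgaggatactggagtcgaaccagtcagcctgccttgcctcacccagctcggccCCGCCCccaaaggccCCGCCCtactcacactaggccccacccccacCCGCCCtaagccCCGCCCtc
The motif occurred 4 times before Mfge8, 5 times before Pros1, 3 times before Mertk and 4 times before Gas6, counting both strands and overlapping matches. It was present in 8 of 8 windows found for these genes (Xkr8 was not matched), and in 32.7% of 32851 windows of the same length in the table. The 4 windows shown were 65.2%, 64.4%, 63.6% and 54.8% G or C, against a median of 52.4% over the table. Other motifs were searched on both strands and were found in 0 of the 8 windows: the E-box CACGTG (present in 6.0% of all windows), the M-box core CATGTG (in 12.3%), the TATA box as TATAAA (in 12.4%) and the CCAAT box (in 33.8%). Gas6, with no count, and Mfge8, the most abundant of these genes in the shallow libraries, held the motif equally often.

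In the 5 shallow libraries Mfge8 was the most abundant of the 9 genes per kilobase of exon, at 43.0 ± 11.7 CPM per kb (SD, n = 5), and its lowest library (29.2) lay above the highest library of any other member (18.8, Mertk). Mertk at 12.9 ± 4.3 CPM per kb, Pros1 at 12.9 ± 1.7 and Plscr1 at 11.2 ± 2.9 (SD, n = 5 each) followed and overlapped with each other. Tyro3 came next at 1.49 ± 1.0, and its highest library (2.74) lay below the lowest of Plscr1 (8.61). Axl at 0.72 ± 0.81, Lrp1 at 0.30 ± 0.23 and Xkr8 at 0.25 ± 0.34 (SD, n = 5 each) overlapped with Tyro3 or with each other. Gas6 stood at 0. In the deep library the order was different, with Mertk at 61.8 CPM per kb, Plscr1 at 29.6, Mfge8 at 22.1, Pros1 at 9.91, Axl at 4.4 and Tyro3 at 2.83. Mertk was thus the leading TAM receptor RNA in each of the 6 libraries, and Mfge8 the most abundant of Mfge8, Pros1 and Gas6.

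**Figure D1:**
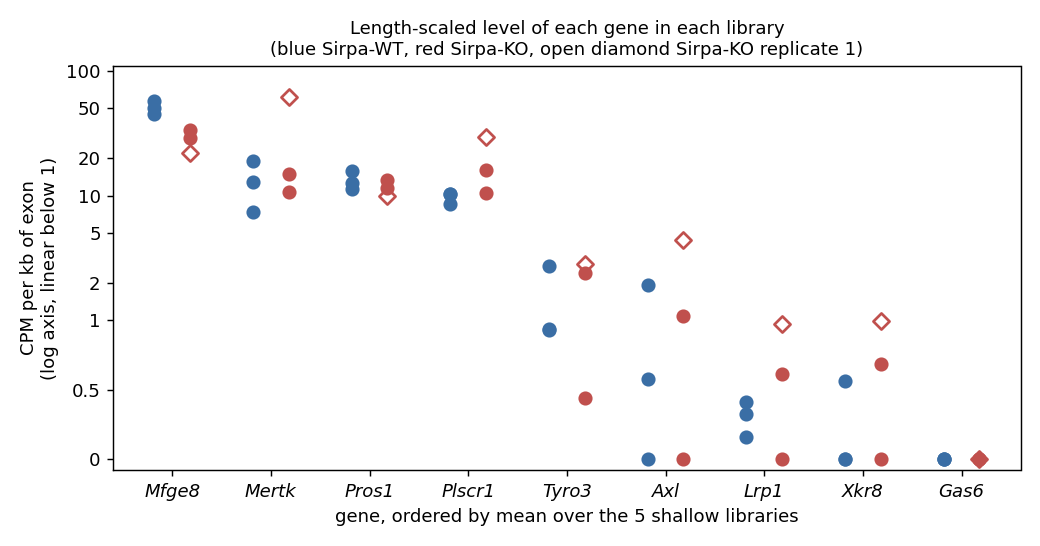
CPM per kb of exon (vertical axis, logarithmic above 1 and linear below) for each of the 9 genes in each library, with Sirpa-WT in blue, Sirpa-KO in red and the deep library as an open diamond. Mfge8 leads in the shallow libraries, Mertk leads in the deep one at 61.8, and Gas6 is at 0 throughout.

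Among the bridging proteins, Mfge8 (ENSMUSG00000030605, GRCm38 chromosome 7, 79133769 to 79149060, minus strand, 10 merged exons) was lower in each library labelled Sirpa-KO. It encodes the secreted glycoprotein MFG-E8, also called lactadherin. It had 50, 33 and 37 counts in Sirpa-WT replicates 1 to 3, against 1404, 21 and 26 in Sirpa-KO replicates 1 to 3. As CPM these were 121, 96.0 and 107 in Sirpa-WT, against 47.0, 62.0 and 70.7 in Sirpa-KO. The groups did not overlap, and the deep library was the lowest. As these are bulk samples, fewer cells expressing a gene and less RNA per cell cannot be told apart.

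Mfge8 went from 108 ± 12.8 CPM in Sirpa-WT (SD, n = 3) to 66.4 ± 6.2 CPM in shallow Sirpa-KO (SD, n = 2). In edgeR's quasi-likelihood test over these 5 libraries it fell, with a log2 fold change of -0.83 ± 0.26 (SE, adjusted p = 0.0299). The ratio of its pooled shallow counts, 47 in Sirpa-KO over 120 in Sirpa-WT and scaled by depth, was 0.61. Its exact 95% interval, which covers counting error alone, ran from 0.426 to 0.862. Over all 6 libraries the log2 fold change was -1.01 ± 0.32 (SE, unadjusted p = 0.0191, edgeR adjusted p = 0.574), and the gene was not called. The 6-library test called none of 5397 genes (0%), with 344 at an unadjusted p under 0.05 and 1 called by DESeq2. Its biological coefficient of variation was 75.8%, against 7.25% without the deep library. The 5-library test called 5.84% of 5510 genes, 4.52% lower and 1.32% higher, so 1 called member among the 3 tested is read against that share.

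The call for Mfge8 was close to its threshold. It ended without Sirpa-WT replicate 1 (adjusted p = 0.114), Sirpa-KO replicate 2 (0.252) or Sirpa-KO replicate 3 (0.148), the last 2 leaving 1 Sirpa-KO library assumed to vary like Sirpa-WT, but not without Sirpa-WT replicate 2 or 3 (0.0343 and 0.0353, edgeR). It also ended under library size scaling, under no filter, with the replicate block and when the trend of expression on the deep-library ratio was removed (log2 fold change -0.60, edgeR adjusted p = 0.268). The direction was lower in each of these fits. The deep library is itself labelled Sirpa-KO, so removing its trend can also take out part of a difference shared by the Sirpa-KO libraries. Mfge8 was among the genes low in the deep library, at a log2 ratio of -0.95 to the shallow mean, where 19.2% of the 4295 protein-coding genes were lower still. Of 11 tested melanocyte markers, 4 were called lower in the 5-library test and none higher, and 7 were not called. Over all 5510 genes, 4.52% were called lower and 1.32% higher. The part of these markers in the fall of Mfge8 was not tested. Its exons overlap no other gene in the files, and none of its 25-base words occurs in the transcripts of another gene, pseudogenes included.

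**Figure D2:**
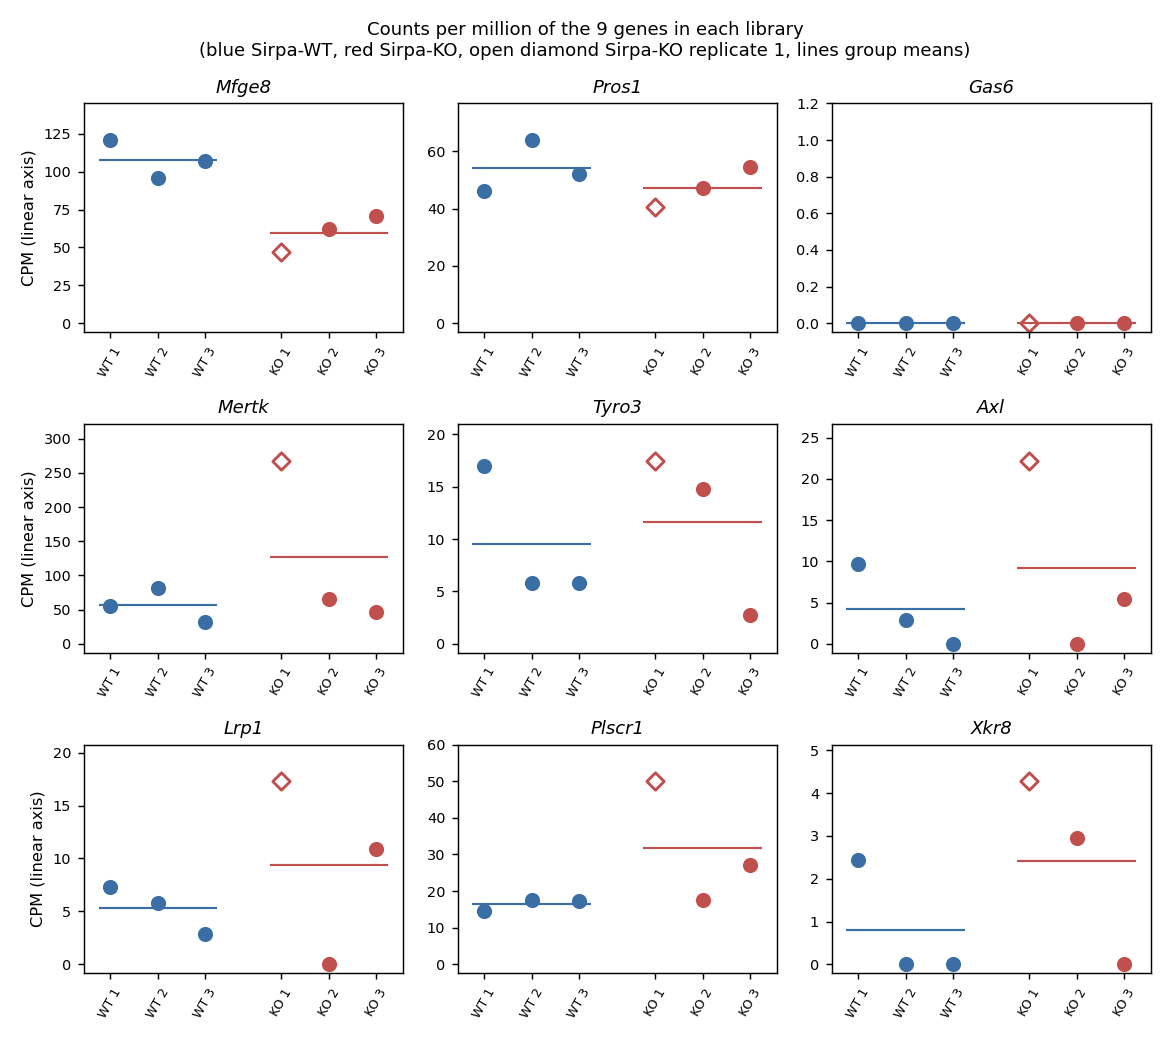
CPM of each of the 9 genes (linear vertical axes) in Sirpa-WT (blue) and Sirpa-KO (red) libraries, with the deep library as an open diamond and lines at the group means. Mfge8 alone lies lower in all 3 Sirpa-KO libraries, at 47.0 to 70.7 CPM against 96.0 to 121. Mertk, Tyro3, Axl, Lrp1, Xkr8 and Plscr1 are highest in the deep library.

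Neighbouring genes gave no common direction. Within 1 Mb of the start of Mfge8, 5 other genes passed the count filter, and none of them was called (edgeR adjusted p of 0.382 to 0.929 over 5 libraries). Their log2 fold changes ran from -0.61 for Fanci, a DNA crosslink repair gene, to 0.68 for Arpin, an inhibitor of the Arp2/3 complex. Polg, the mitochondrial DNA polymerase, shared with Mfge8 a low log2 ratio in the deep library (-1.02), and the other 4 had ratios of 0.73 to 1.29.

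Pros1 (ENSMUSG00000022912, chromosome 16, 62854307 to 62929346, plus strand) encodes protein S, an anticoagulant cofactor and a ligand of TYRO3 and MERTK. It had 19, 22 and 18 counts in the Sirpa-WT libraries, against 1211, 16 and 20 in those of Sirpa-KO, which is 46.2, 64.0 and 52.1 CPM against 40.5, 47.2 and 54.4. The groups overlapped, and the deep library was again the lowest. The log2 fold change was -0.19 ± 0.31 over 5 libraries (SE, edgeR adjusted p = 0.788) and -0.35 ± 0.34 over 6 (adjusted p = 0.668). The ratio of pooled shallow counts was 0.951 (exact 95% interval 0.61 to 1.46), and the lower bound of that interval equals the ratio found for Mfge8.

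Gas6 (ENSMUSG00000031451, chromosome 8, 13465374 to 13494535, minus strand) encodes the TAM ligand that binds all 3 receptors. It had 0 counts in each of the 6 libraries. In the shallow libraries a count of 0 allows up to 7.29 to 8.85 CPM, taking 3 counts as the limit, and in the deep library up to 0.1 CPM. Its exons overlap no other gene in the files, and 0.515% of its 25-base words are shared with another gene. Of Gas6 and Pros1, RNA was detected for Pros1 alone.

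Among the TAM receptors, Mertk (ENSMUSG00000014361, chromosome 2, 128698956 to 128802894, plus strand) was the only one with enough counts to test. MERTK is the TAM receptor best known for the clearance of apoptotic cells by macrophages and of shed outer segments in the retina. It had 23, 28 and 11 counts in the Sirpa-WT libraries, against 8008, 22 and 17 in those of Sirpa-KO, or 55.9, 81.4 and 31.8 CPM against 268, 64.9 and 46.2. The shallow libraries of both groups overlapped, and the deep library stood at 4.78 times the mean of the other 5. The log2 fold change was -0.15 ± 0.30 over 5 libraries (SE, edgeR adjusted p = 0.838). With the deep library it was 1.0 ± 0.75 (adjusted p = 0.591), so that library set its sign. The deep to shallow log2 ratio of Mertk was 2.24, and 2.86% of the 4295 protein-coding genes had a higher one.

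Tyro3 and Axl rested on few reads. Tyro3 (ENSMUSG00000027298), which encodes a receptor prominent in the nervous system, had 7, 2 and 2 counts in the Sirpa-WT libraries, against 524, 5 and 1 in those of Sirpa-KO. That is 17.0, 5.82 and 5.79 CPM against 17.5, 14.8 and 2.72, with groups that overlapped. Axl (ENSMUSG00000002602), the receptor with the highest affinity for GAS6, had 4, 1 and 0 counts in the Sirpa-WT libraries, against 662, 0 and 2 in those of Sirpa-KO. Its CPM were 9.72, 2.91 and 0 against 22.2, 0 and 5.44, with the deep library above the rest. Ratios of the pooled shallow counts were 0.85 for Tyro3 (exact 95% interval 0.258 to 2.51) and 0.623 for Axl (0.0594 to 3.81), intervals too wide to show a change of a few fold. Both genes were under the count filter and were not tested.

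Lrp1 (ENSMUSG00000040249, chromosome 10, 127538161 to 127621148, minus strand) is the longest of the 9, with 17717 bases of exon in 88 merged exons. It had 3, 2 and 1 counts in the Sirpa-WT libraries, against 517, 0 and 4 in those of Sirpa-KO, or 7.29, 5.82 and 2.89 CPM against 17.3, 0 and 10.9. The groups overlapped, and the Sirpa-KO libraries held both the lowest and the highest values. The ratio of pooled shallow counts was 1.04 (exact 95% interval 0.216 to 4.38).

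The scramblase Xkr8 (ENSMUSG00000037752, chromosome 4), which caspases activate in apoptotic cells, had 1, 0 and 0 counts in the Sirpa-WT libraries, against 128, 1 and 0 in those of Sirpa-KO. The deep library placed it at 4.28 CPM, under the limit of detection of each shallow library, so no fold between groups is given.

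Plscr1 (ENSMUSG00000032369, chromosome 9, 92250057 to 92271975, plus strand) encodes phospholipid scramblase 1, an interferon-induced membrane protein. It had 6, 6 and 6 counts in the Sirpa-WT libraries, against 1494, 6 and 10 in those of Sirpa-KO, or 14.6, 17.5 and 17.4 CPM against 50, 17.7 and 27.2. The groups did not overlap, but Sirpa-KO replicate 2 had the same 6 counts as each Sirpa-WT library, and the gene was under the count filter. Of the 9 members, 2 had groups that did not overlap, Mfge8 lower and Plscr1 higher. Among the 3 members tested, Mfge8 alone did so, where 30.7% of the 5397 genes tested over 6 libraries did, 10.2% lower and 20.4% higher. For genes under the filter, Plscr1 among them, that share was not computed. The ratio of pooled shallow counts of Plscr1 was 1.39 (exact 95% interval 0.661 to 2.88).

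The level of Plscr1 was uncertain for another reason. Of its 25-base words, 22.6% occur in pseudogenes, chiefly Gm5530, a processed copy on chromosome 1. Gm5530 had 35, 24 and 38 counts in the Sirpa-WT libraries, against 4, 26 and 31 in those of Sirpa-KO, so it exceeded Plscr1 in each shallow library and was nearly absent from the deep one. Summed over both genes, a step chosen after the values were seen, the level was 99.6, 87.3 and 127 CPM in Sirpa-WT, against 50.1, 94.4 and 112 in Sirpa-KO. The groups then overlapped, and the deep library turned from the highest to the lowest. No other member shared more than 1.64% of its words with pseudogenes.

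**Figure D3:**
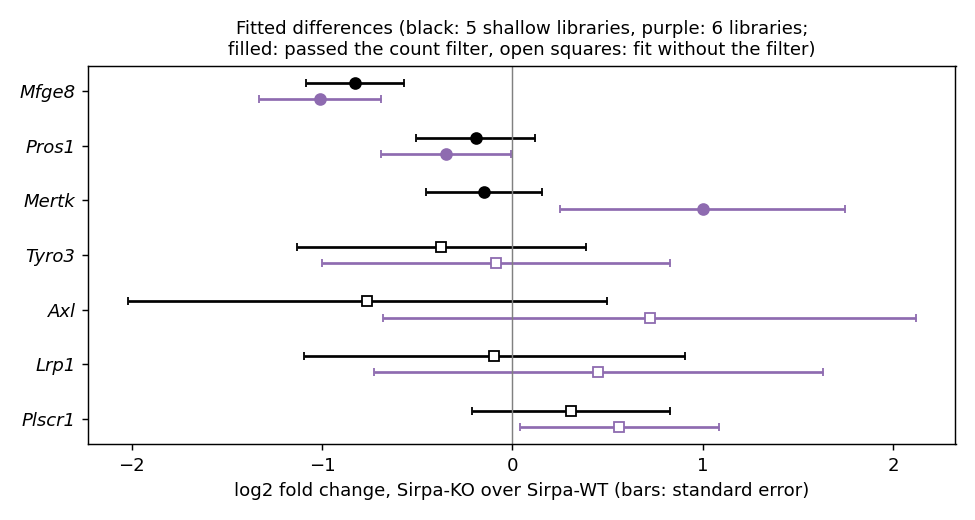
Log2 fold change of Sirpa-KO over Sirpa-WT with its standard error for 7 members, over 5 shallow libraries (black) and all 6 (purple); open squares mark genes under the count filter, fitted without it. Mfge8 lies at -0.83 and -1.01, Mertk changes from -0.15 to 1.0 when the deep library enters, and the remaining members lie between -0.76 and 0.72.

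The deep library was the highest of the 6 libraries for Mertk, Tyro3, Axl, Lrp1, Xkr8 and Plscr1, and the lowest for Mfge8 and Pros1. Their deep to shallow log2 ratios were, in that order, 2.24, 0.86, 2.33, 1.52, 1.35, 1.36, -0.95 and -0.37. The CPM added before taking these ratios lowered them for scarce genes. Without it, the deep library held 6.13 times the shallow mean for Axl, 3.22 times for Lrp1 and 3.98 times for Xkr8. Over the 4295 protein-coding genes that passed the count filter the median log2 ratio was 0.90, with quartiles of -0.64 and 1.34. A positive ratio was thus common in that set, but 2.86% of it exceeded Mertk. Tyro3, Axl, Lrp1, Xkr8 and Plscr1 were under the filter, so for them it is an unlike set. The share of all genes highest or lowest in the deep library was not counted. The median log2 fold change over the 3 tested members was -0.19 without the deep library, against 0.013 over all 5510 genes. Under scaling by library size alone, the median of all genes over the 5 libraries shifted to 0.15, and the calls moved from 73 higher and 249 lower to 279 higher and 128 lower. On that scale Mfge8 stood at -0.69 (edgeR adjusted p = 0.0801), Pros1 at -0.056 and Mertk at -0.011, and all 3 kept a negative sign.

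The 2 genes whose pattern over the 6 libraries was most like that of Mfge8, among 3504 others with at least 50 counts in Sirpa-WT together, were Plekha5 and Ctsd. Plekha5 encodes a pleckstrin homology domain protein and Ctsd the lysosomal protease cathepsin D. Their root mean square differences from Mfge8 in centred log2 CPM were 0.072 for each, where the median gene differed by 0.886. Plekha5 stood at 277, 224 and 255 CPM in Sirpa-WT, against 109, 130 and 174 in Sirpa-KO. Ctsd stood at 1530, 1230 and 1260 CPM in Sirpa-WT, against 619, 865 and 936 in Sirpa-KO, 6.47% of its exon bases overlap those of Ifitm10, and 33.4% of its 25-base words occur in another gene, chiefly Gm49369. In both genes the deep library was the lowest and no Sirpa-KO library reached the Sirpa-WT range, which follows from their choice by this pattern.

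**Figure D4:**
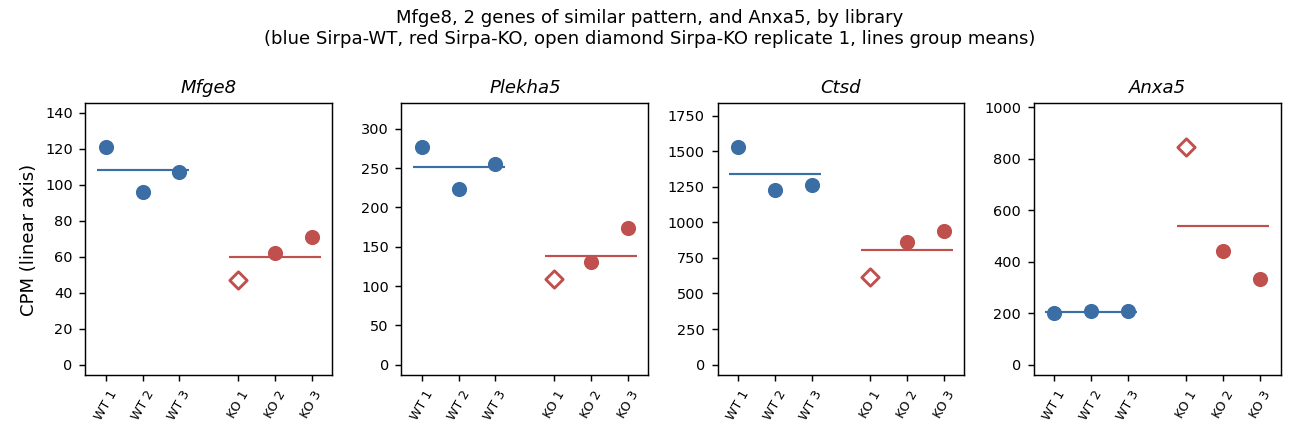
CPM by library (linear axes, Sirpa-WT blue, Sirpa-KO red, deep library as an open diamond, lines at group means) for Mfge8, the 2 genes of most similar pattern, and Anxa5. The first 3 genes are lower in each Sirpa-KO library, and Anxa5 is higher, at 332 to 846 CPM against 199 to 209.

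The wider pathway was read from 101 other genes, of which 75 were detected in the shallow libraries and 33 passed the count filter over 5 libraries. Of these 33, 1 was called higher and 32 did not pass edgeR's test, against 5.84% of all genes called. Their median log2 fold change was -0.074. Over 6 libraries 32 of them were tested and none was called, with no adjusted p under 0.574. Fold changes below are over the 5 shallow libraries unless stated.

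Anxa5 rose. It encodes annexin A5, which binds exposed phosphatidylserine and is widely used to stain dying cells. It had 82, 72 and 72 counts in the Sirpa-WT libraries, against 25276, 150 and 122 in those of Sirpa-KO, or 199, 209 and 208 CPM against 846, 443 and 332. The groups did not overlap, and the deep library was the highest. Over 5 libraries the log2 fold change was 0.79 ± 0.16 (SE, edgeR adjusted p = 9.6e-05), and 0.56 once the deep-library trend was removed (adjusted p = 0.024). Without Sirpa-KO replicate 2 the call ended (adjusted p = 0.177). Over 6 libraries it was 1.22 ± 0.41 (adjusted p = 0.574). No 25-base word of Anxa5 occurs in another gene. Anxa5 was placed in a list of 10 genes headed bridging proteins and TAM ligands, and was the only one of them to pass the filter. A bridging role of annexin A5 was not tested. From the same list, C1qa, C1qb, C1qc, Tub and Apoh were at 0 in all 6 libraries. Edil3, a relative of Mfge8 that also joins phosphatidylserine to integrins, had counts in the deep library alone (380).

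Of 9 listed receptors of the LRP1 family, 1 passed the filter. Lrp6, a WNT co-receptor, had 26, 27 and 14 counts in the Sirpa-WT libraries, against 5570, 36 and 33 in those of Sirpa-KO, or 63.2, 78.5 and 40.5 CPM against 186, 106 and 89.8. Its groups did not overlap, with a log2 fold change of 0.56 ± 0.27 over 5 libraries (SE, edgeR adjusted p = 0.2) and 0.91 over 6, and it was not called. For Lrp1 partners, the chaperone Lrpap1 (0.46), the ligand Apoe (-0.32) and the cell-surface ligand Calr (-0.050 ± 0.12, SE) did not pass edgeR's test either. Over 6 libraries these 3 stood at 0.93, 0.049 and -0.0029, so Apoe changed sign with the deep library.

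Receptors and effectors gave no further call. Itgav and Itgb5, which encode the integrin subunits that bind MFG-E8, had log2 fold changes of -0.24 and -0.43 (-0.56 and -0.74 over 6 libraries), and Itgb5 stood at 68.0, 55.3 and 92.6 CPM in Sirpa-WT against 29.8, 47.2 and 68.0 in Sirpa-KO. Of 7 tested genes of the other scramblases, flippases and their partners none passed. Bsg, a chaperone of membrane transporters that also pairs with XKR8, had a log2 fold change of 0.27 ± 0.21 (SE), and 1.1 over 6 libraries. Its close relative Nptn was as abundant, at 71.1 ± 6.4 CPM per kb against 71.5 ± 16.2 for Bsg (SD, n = 5 each). Nptn was lower in each Sirpa-KO library, at 488, 462 and 443 CPM against 185, 398 and 400, and was not called (-0.34, edgeR adjusted p = 0.129). None of the 8 tested engulfment genes passed under the TMM scaling. Among these were the focal adhesion kinase gene Ptk2 (-0.38 ± 0.13, edgeR adjusted p = 0.0511, and 0.035 without Sirpa-WT replicate 3), the late endosome GTPase gene Rab7 (0.43, adjusted p = 0.156, and 0.0397 under scaling by library size alone) and the early endosome GTPase gene Rab5a (-0.82, adjusted p = 0.0689). Over 6 libraries these 3 stood at -0.78, 0.79 and -0.76. None of the 7 tested genes of TAM shedding and signalling passed, with the kinase gene Akt2 at 0.90 (adjusted p = 0.0784, and 0.0316 under scaling by library size alone) and the adaptor gene Grb2 at -0.35. Over 6 libraries these stood at 0.93 and -0.72. All 4 genes that process GAS6 and protein S were under the filter, and the carboxylase gene Ggcx had 10, 5 and 7 counts in the Sirpa-WT libraries, against 1202, 10 and 7 in those of Sirpa-KO. Of the find-me and do-not-eat-me signals, Cd47, the ligand of SIRPα, stood at 38.9, 40.7 and 26.0 CPM in Sirpa-WT, against 22.2, 41.3 and 24.5 in Sirpa-KO, with groups that overlapped (-0.24 ± 0.39, SE, edgeR adjusted p = 0.788, and -0.43 over 6 libraries). Anxa1, a calcium-dependent phospholipid-binding protein gene, was at -0.010 ± 0.12, and at -0.19 over 6 libraries.

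**Figure D5:**
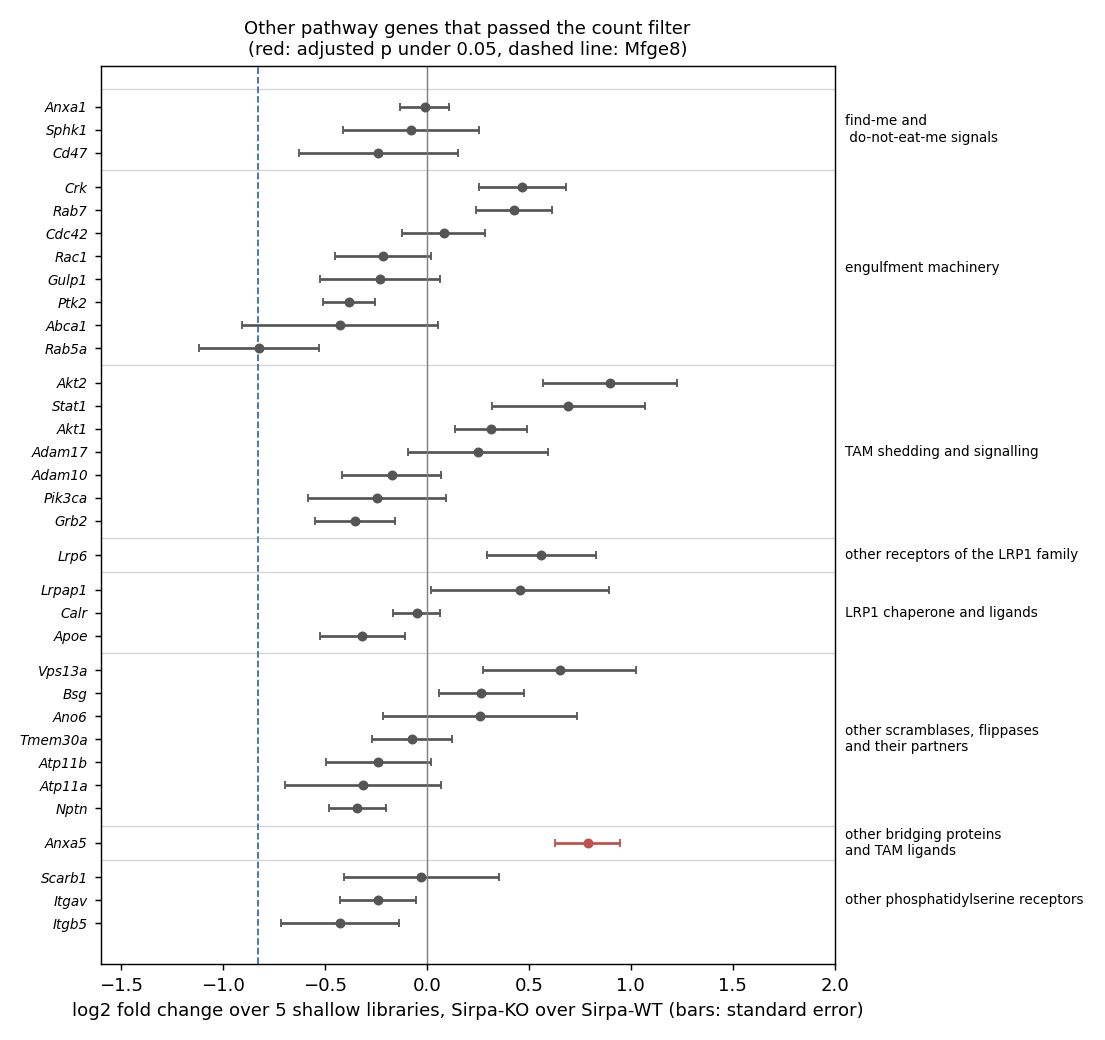
Log2 fold change over the 5 shallow libraries with its standard error (horizontal axis) for the 33 other pathway genes that passed the count filter, grouped by role; red marks adjusted p under 0.05 and the dashed line marks Mfge8. Anxa5 at 0.79 is the 1 called gene, and the rest spread to both sides of 0.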

How the data were processed

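Poly(A)-selected RNA was sequenced in 6 libraries, grouped by their titles. The deposited counts are raw read pairs assigned to genes. Per the file headers, the authors ran featureCounts 1.5.1 on exon features from Ensembl release 75 (GRCm38), and no strand option was set although the kit was stranded. The submitters' processing notes also name STAR 2.6.0 and Subread. Totals were 338824 to 411695 in 5 libraries and 29877270 in Sirpa-KO replicate 1. Why that file stands apart is not given in the sources used here.

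Symbols came from GENCODE mouse release M21 by gene identifier (37607 of 39179 genes). Genes were filtered with filterByExpr (minimum count 10), scaled by TMM and tested with edgeR 4.0.16 (glmQLFit with robust=TRUE, R 4.3.3), 2-sided, with p-values adjusted by Benjamini-Hochberg across every gene in the fit and called under 0.05, over 6 libraries and without Sirpa-KO replicate 1. Standard errors are the fold change over the root of the F statistic. Genes under the filter were fitted without it and not called. DESeq2 1.42.0 was an alternative. The tests were tried on simulated data whose libraries shared the same composition, apart from genes made to differ, at a biological coefficient of variation of 7.25%. The 6 real libraries had 75.8% and a deep library of other composition, so the simulation was no check of the 6-library test. Exact (Clopper-Pearson) intervals and the limit of 3 counts cover counting error only. Shallow libraries of a group were compared by chi-square, which gave 1.15 to 1.45 per degree of freedom, and all were kept as separate replicates. Alternatives were other scalings and filters, DESeq2, the replicate block, robust=FALSE, protein-coding genes, thinning of Sirpa-KO replicate 1, removal of a lowess trend (span 0.3) on the ratio to it, and leaving out each library.

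The members, gene lists and alternatives were chosen with earlier results of these data known. Named genes were the members, Sirpa, Cd47, up to 4 called genes of each other list or else its most abundant per kb, and the genes most like Mfge8; other list genes were named after their values were seen. An item that the rule would name is not reported here and is left out of the list counts. Single-cell libraries of the study were not analysed here.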

Additional observations from a re-analysis of the deposited data

How the results depend on the processing

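With all 6 libraries edgeR called 0 genes, with 344 at an unadjusted p under 0.05, and DESeq2 called 1. Leaving out single libraries gave 0 to 322 genes and 0 to 1 members, the upper values without Sirpa-KO replicate 1. Against 322 genes called over 5 libraries, DESeq2 called 132 and removal of the trend left 110, of which 86 were among the 322. The cause was not tested, and a trend on a library labelled Sirpa-KO can hold part of a shared Sirpa-KO difference. Among protein-coding genes, where fewer were tested, the number called was 196. Leaving out single libraries gave 125 to 351 (Sirpa-WT replicate 2, 214; Sirpa-KO replicate 2, 125; Sirpa-KO replicate 3, 127). The 1 member called, Mfge8, became 0 under library size alone, no filter (adjusted p = 0.0517), the replicate block (-0.73, adjusted p = 0.119) and the trend removed, and 0 to 1 with each library left out. DESeq2 gave it no adjusted p over 5 libraries (-0.83, unadjusted p = 0.024). Its log2 fold change ran from -0.94 to -0.60 over 15 alternatives of the 5-library fit, 7 of which called it, and from -1.23 to -0.79 over 16 of the 6-library fit. Mertk changed sign with single libraries left out, from -0.15 to 1.29 around its 6-library value and from -0.42 to 0.17 around its 5-library value, being positive there without Sirpa-WT replicate 2 or Sirpa-KO replicate 3. Pros1 was negative in each alternative and never called. Deviations of same-numbered libraries from their group means had r of -0.042 to 0.058 over 6 libraries, and 0.0043 and -0.013 over 5. Over 5 libraries, centring makes the deviations of the 2 Sirpa-KO libraries mirror images, so those 2 values are not independent. Shallow libraries of a group differed by little beyond counting error (chi-square of 1.15 to 1.45 per degree of freedom), so these r values cannot exclude a pairing. The replicate block rests on shared numbers alone. It called 0 genes over 6 libraries and 316 over 5, of which 249 were among the 322. Tyro3, Axl, Lrp1, Xkr8 and Plscr1 were under the filter at this depth and RNA level.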
